A study of Mus musculus with 6 samples.

Results

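The transcripts of 8 enzymes that make haem were followed in mouse leukemia cells: Alas1, Alas2, Alad, Uros, Urod, Cpox, Ppox and Fech. They were chosen as the rows with these gene symbols, and all 8 of 8 are present among the 21881 genes of each of the 2 deposited tables. The cells carried AE9a, a truncated AML1-ETO fusion protein, on a C57/B6X129SV background, with Id1 alleles flanked by loxP sites and with CreER, a recombinase that tamoxifen metabolites switch on; the controls carry all of these too. Of 6 samples, 2 had received CBD, described as an Id1 inhibitor, at 15 µM for 16 h, 2 had received 4-hydroxytamoxifen (4-OHT) at 0.1 µM for 48 h, and 2 were controls whose vehicle is not named. No 4-OHT arm without loxP sites is listed, and the labels do not state whether replicate samples came from separate cultures. Each table gives 1 FPKM value per group (fragments scaled by transcript length and by the mapped total of the library), so no spread between samples, n or depth stands behind any value below.

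Haem is an iron-holding porphyrin ring that globins, cytochromes, catalase and peroxidases carry as their working group. Its synthesis begins in the mitochondrion, where 5-aminolevulinate synthase joins glycine to succinyl-CoA; Alas1 encodes the form that most cells use and Alas2 the form of developing red cells. Alad, Uros and Urod encode cytosolic steps that build and trim the ring, and Cpox, Ppox and Fech the steps back in the mitochondrion, the last of which inserts iron. In red cell precursors the transcription factor GATA1 acts on several of these genes, and free haem represses Alas1 in liver.

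A gene is said to have risen or fallen only where q in the authors' deposited table was under 0.05. That q comes from the authors' Cuffdiff test over all genes they tested, and it can measure only the spread between the samples they had, which may be technical. Log2 folds are treated over control, with 0.1 FPKM added to each value. Id1, the gene that Cre is meant to remove, fell to 0.741 FPKM with 4-OHT, against 15.4 FPKM in its control. With CBD Id1 stood at 11.95 FPKM and at 34.2 FPKM in its control, and did not pass the test (q = 0.133 in the authors' deposited table). The 2 control columns come from separately made tables. By their descriptions, the first control sample belongs with CBD and the second with 4-OHT, so each control column may rest on a single library. Levels set across the tables are therefore descriptions with no test.

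Among the cells' other transcripts some red cell genes were high and others low. Gata1 stood between 139 and 232 FPKM over the 4 columns and the red cell transcription factor gene Klf1 between 53.1 and 81.5 FPKM. The globin gene Hbb-b2 stood between 526 and 1348 FPKM, while Slc4a1 did not exceed 1.08 FPKM and Epb4.2 did not exceed 4.16 FPKM. Of the progenitor genes, the receptor gene Kit stood between 75.0 and 95.6 FPKM, Myb between 65.5 and 112 FPKM, and Runx1 between 38.0 and 92.6 FPKM. Of the granulocyte granule genes, Elane is listed at 0 in all 4 columns, Mpo did not exceed 0.0662 FPKM, and Ctsg stood at 7.32 FPKM with CBD and 1.64 FPKM in its control, and at 0.292 FPKM with 4-OHT and 0.599 FPKM in its control. Ptprc, the leukocyte antigen CD45, did not exceed 0.417 FPKM. In the CBD column, marker transcripts of other cell types were also present, and where they came from was not tested. Of 19 tested neuron and glia markers, 17 rose with CBD, and their summed level was 519 FPKM with CBD and 61.3 FPKM in its control, against 39.2 FPKM with 4-OHT and 44.2 FPKM in its control. Monocyte and macrophage markers summed to 25.8 FPKM with CBD and 2.68 FPKM in its control. Mog and S100b are listed at 0 in the control of the CBD table and at 7.23 and 6.35 FPKM with CBD. The part of this RNA in the CBD results below was not tested.

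Reference promoters of the members that CBD changed, and of the third member with the same motif, are shown first, because GATA1 is a known activator of this pathway in red cell precursors. They come from RefSeq (GRCm38.p6) and run from 250 bases before to 50 bases after an annotated start, 5′ to 3′ along the gene, with GATAA or its reverse complement TTATC in capitals. A window was held for 7 of the 8 members; Fech is named only.
Cpox, chr16:58669958-58670257, plus strand: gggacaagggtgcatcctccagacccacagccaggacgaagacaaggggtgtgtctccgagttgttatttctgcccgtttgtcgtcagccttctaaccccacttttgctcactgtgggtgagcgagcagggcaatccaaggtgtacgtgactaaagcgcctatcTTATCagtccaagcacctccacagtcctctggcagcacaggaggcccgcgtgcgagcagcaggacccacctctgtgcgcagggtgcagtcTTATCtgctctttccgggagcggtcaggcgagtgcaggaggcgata
Alas2, chrX:150547167-150547466, plus strand: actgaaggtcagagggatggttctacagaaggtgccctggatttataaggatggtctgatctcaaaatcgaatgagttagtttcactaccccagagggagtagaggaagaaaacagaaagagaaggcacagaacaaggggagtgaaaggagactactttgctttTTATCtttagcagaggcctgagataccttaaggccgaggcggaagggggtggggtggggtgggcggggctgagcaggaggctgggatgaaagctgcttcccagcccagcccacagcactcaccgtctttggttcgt
Uros, the downstream of 2 annotated starts, chr7:133702451-133702750, minus strand: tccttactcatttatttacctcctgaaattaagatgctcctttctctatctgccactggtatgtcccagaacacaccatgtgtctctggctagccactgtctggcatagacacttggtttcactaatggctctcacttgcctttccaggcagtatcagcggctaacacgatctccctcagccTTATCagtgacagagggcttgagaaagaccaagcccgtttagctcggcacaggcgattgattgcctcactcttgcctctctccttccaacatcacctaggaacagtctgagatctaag

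The GATAA motif, searched on both strands, was found in 3 of the 10 windows of these 7 members, against 25.4% of all 32851 windows of this length. Cpox has 2 matches, whose first bases lie 86 bases before the start and at base 5 after it, and 5.27% of windows hold more than 1. Alas2 has its match 86 bases before the start and Uros 68 bases before it. The upstream Uros window and both Alas1 windows hold none. The windows also differ in CpG dinucleotides: Alas2 has 6 and the downstream Uros window 5, against 27 and 44 in the Alas1 windows and a median of 7 over all windows. The E-box CANNTG, the site of the E proteins that Id1 holds off DNA, was searched on both strands, and 72.3% of windows hold it. It was found in both Alad and both Uros windows, the Urod window and the second Alas1 window. It was not found in the Cpox, Alas2, Ppox or first Alas1 window. The letters CACCC, part of the site of KLF1, had 4 matches in the Cpox window and 3 in the Alas2 window on either strand. At least 1 match is held by 57.5% of windows and more than 2 by 9.35%. Both Alas1 windows, the second Alad window and the Urod window had at most 2 matches each. The antioxidant element letters TGACNNNGC were in none of the windows of these 7 members on either strand (12.4% of windows). Matches of different motifs may overlap, and a match is a description of letters only.

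Levels per transcript length spanned more than an order of magnitude along the pathway, with Alas1, Alas2 and Uros the lowest members in every column. Alas1 and Alas2 encode the same step and summed to 14.1 to 21.6 FPKM over the columns. Uros, at 10.7 to 14.6 FPKM, lay below that sum in each column. In the control of the 4-OHT table the order from high to low was Cpox, Urod, Fech, Alad, Ppox, Alas2, Uros and Alas1, and Cpox stood 41.8 times above Alas1. The 4-OHT column kept this order. In the control of the CBD table the first 5 places were the same, and Alas2 came last below Uros and Alas1. With CBD the order was Urod, Cpox, Alad, Fech, Ppox, Uros, Alas2 and Alas1, so Urod and Cpox had changed places, as had Alad and Fech. Uros, Alas2 and Alas1 lay within 9.23 to 12.1 FPKM there. With no spread between samples, no neighbours in these orders can be said to differ. The highest and lowest members stood 11.4-fold apart with CBD and 29.8-fold apart in its control, against 34.4-fold with 4-OHT and 41.8-fold in its control. The FPKM of the 8 members summed to 331 with CBD and 450 in its control, and to 522 with 4-OHT and 513 in its control. Cpox made up 27.0% of that sum with CBD and 42.1% in its control, against 42.8% with 4-OHT and 41.9% in its control.

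**Figure D1:**
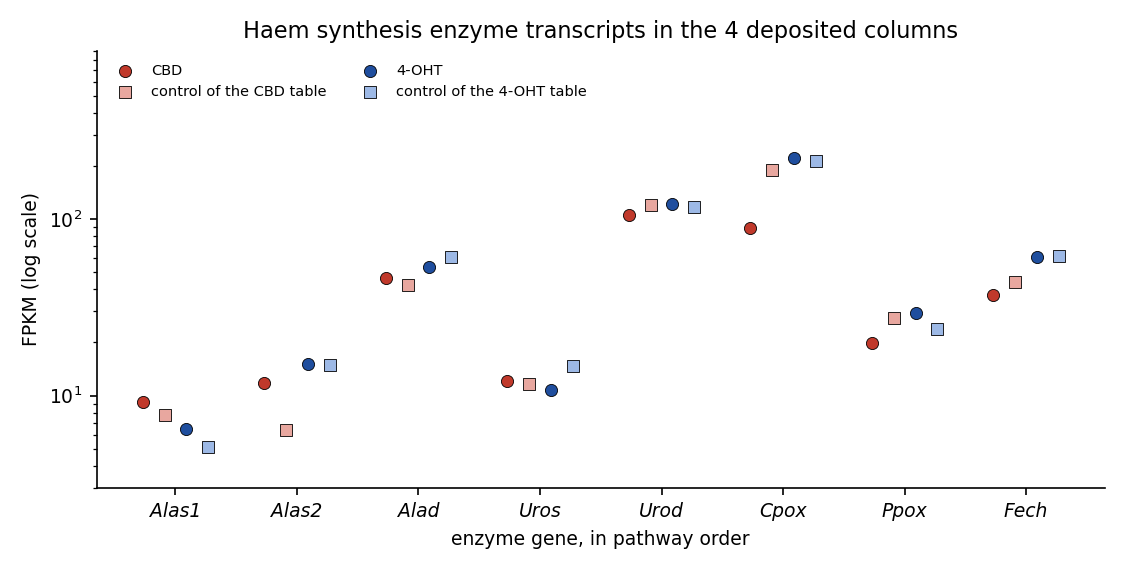
FPKM on a log axis for the 8 enzymes in pathway order; circles are the treated columns, squares the control column of the same table, 1 value each. Cpox with CBD lies at 89.4 FPKM, under the other 3 columns at 189 to 223 FPKM, and Alas2 in the control of the CBD table lies at 6.34 FPKM, under the other 3 at 11.8 to 15.1 FPKM.

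With CBD, 2 of the 8 enzymes changed: Cpox fell and Alas2 rose, and the other 6 did not pass the test. Over all tested genes, 26.2% changed with CBD, 18.4% higher and 7.74% lower, so 2 of 8 is near the background. At a q under 0.01 the same count was 2 of 8 (18.6% of tested genes), and with at least 2-fold also required at a q under 0.05 it was 1 of 8 (19.1%). The members' median log2 fold was −0.07, against 0.29 for all 13751 tested genes. The median was 0.06 over tested genes at 1 FPKM or more in both columns, as all 8 members were. Of the members' folds, 4 were above 0 and 4 below. The 4 positive folds were those of Alas1, Alas2, Alad and Uros, early in the pathway, and the 4 negative ones those of Urod, Cpox, Ppox and Fech. This split did not hold under other settings. Only Alas2 stayed above 0 when the columns were scaled to the same sum. With the trend of folds with transcript length removed, Alad and Uros each stood at −0.14 and Fech at 0.0499. Over the other table's control, Alas2, Alad and Uros stood at −0.33, −0.40 and −0.27. Among tested genes at 1 FPKM or more in both columns the median absolute log2 fold was 0.45, and the members' median absolute log2 fold was 0.25.

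Cpox encodes coproporphyrinogen oxidase, which acts between the mitochondrial membranes and lies on chromosome 16 from 58670321 to 58680502 in mm9. It stood at 89.4 FPKM with CBD and at 189 FPKM in its control, a log2 fold of −1.08 (q = 0.000144 in the authors' deposited table). The control of the 4-OHT table, at 215 FPKM, was higher still, and against it the log2 fold was −1.26. Cpox with CBD was thus the lowest of the 4 columns, which otherwise lay within 189 to 223 FPKM. In RNA from whole cultures, fewer cells that express a gene and less of its RNA per cell cannot be told apart.

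Alas2, on chromosome X from 146981960 to 147005165 in mm9, stood at 11.8 FPKM with CBD and at 6.34 FPKM in its control, a log2 fold of 0.88 (q = 0.00488 in the authors' deposited table). The control of the 4-OHT table held 14.8 FPKM, so that the CBD value lay between the 2 control columns, and against that column its log2 fold was −0.33. Alas1 stood at 9.23 FPKM with CBD and 7.77 FPKM in its control, a log2 fold of 0.25 (q = 0.742 in the authors' deposited table). Alas2 supplied 56.1% of the summed Alas1 and Alas2 FPKM with CBD and 45.0% in its control, against 70.0% with 4-OHT and 74.3% in its control. The share thus differed more between the 2 control columns than between either treated column and its own control.

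Of the cytosolic steps, Alad, which joins 2 aminolevulinate molecules, stood at 46.1 FPKM with CBD and 42.4 FPKM in its control (q = 0.818 in the authors' deposited table). Uros, which closes the ring, stood at 12.1 FPKM with CBD and 11.6 FPKM in its control (q = 0.950 in the authors' deposited table). Urod, which removes carboxyl groups from the ring's side chains, stood at 105 FPKM with CBD and 121 FPKM in its control (q = 0.633 in the authors' deposited table). Their log2 folds were 0.12, 0.06 and −0.19.

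The last 2 steps did not pass the test with CBD. Ppox, the oxidase that makes protoporphyrin, stood at 19.9 FPKM with CBD and 27.6 FPKM in its control, a log2 fold of −0.47 (q = 0.382 in the authors' deposited table). Fech, the ferrochelatase that inserts iron, stood at 37.2 FPKM with CBD and 44.2 FPKM in its control, a log2 fold of −0.25 (q = 0.519 in the authors' deposited table). Each of these values was also under the control of the 4-OHT table, at 23.8 FPKM for Ppox and 61.5 FPKM for Fech. Of the 3014 genes tested with CBD at 1 FPKM or more in both columns whose absolute log2 fold was at least 0.2 and under 0.5, 3.09% were called.

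With 4-OHT, 4 of the 8 enzymes changed, all by less than 1.5-fold: Alas1 and Ppox rose, Alad and Uros fell. Over all tested genes, 44.1% changed with 4-OHT, 27.2% higher and 16.9% lower, so 4 of 8 is near the background here too. At a q under 0.01 the count was 3 of 8 (33.3% of tested genes), and with at least 2-fold required it was 0 of 8 (2.64%). The members' median log2 fold was 0.04, against 0.05 for all 11232 tested genes. Of the 3035 genes tested with 4-OHT at 1 FPKM or more in both columns whose absolute log2 fold was at least 0.2 and under 0.5, 85.8% were called.

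Uros, on chromosome 7 from 140878013 to 140900978 in mm9, stood at 10.7 FPKM with 4-OHT and at 14.6 FPKM in its control, a log2 fold of −0.44 (q = 1.66e-06 in the authors' deposited table). The control of the CBD table held 11.6 FPKM, so Uros with 4-OHT was the lowest of the 4 columns. The tables give 1 value for the gene and do not tell its 2 starts apart. Ppox, on chromosome 1 from 173207123 to 173211317 in mm9, stood at 29.5 FPKM with 4-OHT and at 23.8 FPKM in its control, a log2 fold of 0.31 (q = 5.39e-05 in the authors' deposited table). It was the highest of the 4 columns, with 27.6 FPKM in the control of the CBD table. For these 2 enzymes the treated value lay outside both control columns.

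Alas1, on chromosome 9 from 106135786 to 106150285 in mm9, stood at 6.49 FPKM with 4-OHT and at 5.13 FPKM in its control, a log2 fold of 0.33 (q = 0.00280 in the authors' deposited table). Alad, on chromosome 4 from 62170204 to 62181097 in mm9, stood at 53.8 FPKM with 4-OHT and at 60.9 FPKM in its control, a log2 fold of −0.18 (q = 0.0148 in the authors' deposited table). The other table's control column held 7.77 FPKM of Alas1 and 42.4 FPKM of Alad, so both 4-OHT values lay between the 2 control columns. Against that column the log2 folds took the opposite sign, at −0.26 for Alas1 and 0.34 for Alad.

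The other 4 enzymes differed from their control by at most 4.42% with 4-OHT and did not pass the test. Cpox stood at 223 FPKM with 4-OHT and 215 FPKM in its control (q = 0.469 in the authors' deposited table). Alas2 stood at 15.1 FPKM with 4-OHT and 14.8 FPKM in its control (q = 0.768 in the authors' deposited table). Urod stood at 122 FPKM with 4-OHT and 117 FPKM in its control, and Fech at 60.9 FPKM with 4-OHT and 61.5 FPKM in its control. Whether the 2 treatments differ in any member was not tested.

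**Figure D2:**
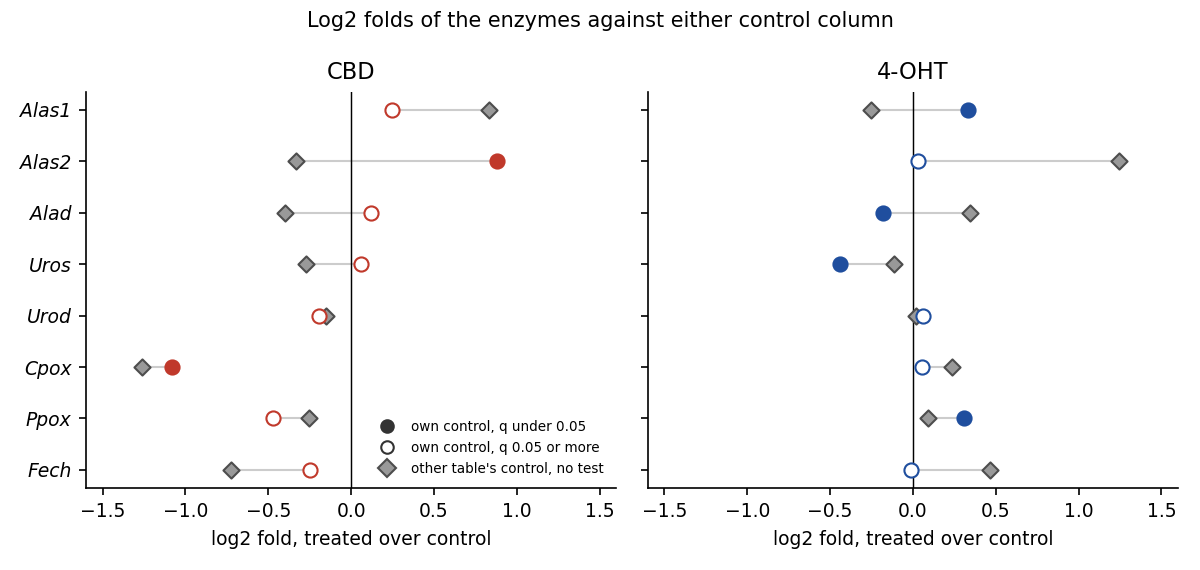
Log2 fold of each enzyme with CBD (left) and 4-OHT (right). Circles are folds over the control of the same table, filled where q was under 0.05; grey diamonds are folds over the other table's control, with no test, and a line joins the pair. The Cpox circle and diamond lie at −1.08 and −1.26 with CBD, while those of Alas2 lie on either side of 0, at 0.88 and −0.33.

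The 2 control columns also differed from each other. As the log2 ratio of the control of the CBD table over the control of the 4-OHT table, it was −1.21 for Alas2, 0.59 for Alas1, −0.52 for Alad, −0.48 for Fech and −0.33 for Uros, and within 0.22 of 0 for Urod, Cpox and Ppox. The absolute gap had a median of 0.40 over the 8 members, whose median absolute fold was 0.25 with CBD and 0.12 with 4-OHT, and a median of 0.35 over the 9481 genes that reached 1 FPKM in each control column. It exceeded the absolute fold of the treatment for 5 of 8 members with CBD and for 5 of 8 with 4-OHT. Values with CBD lay outside the 2 control columns for 5 of 8 members, 1 above and 4 below, against 78.0% of the 9481 genes. Values with 4-OHT lay outside for 5 of 8 members, 4 above and 1 below, against 46.5% of the genes.

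**Figure D3:**
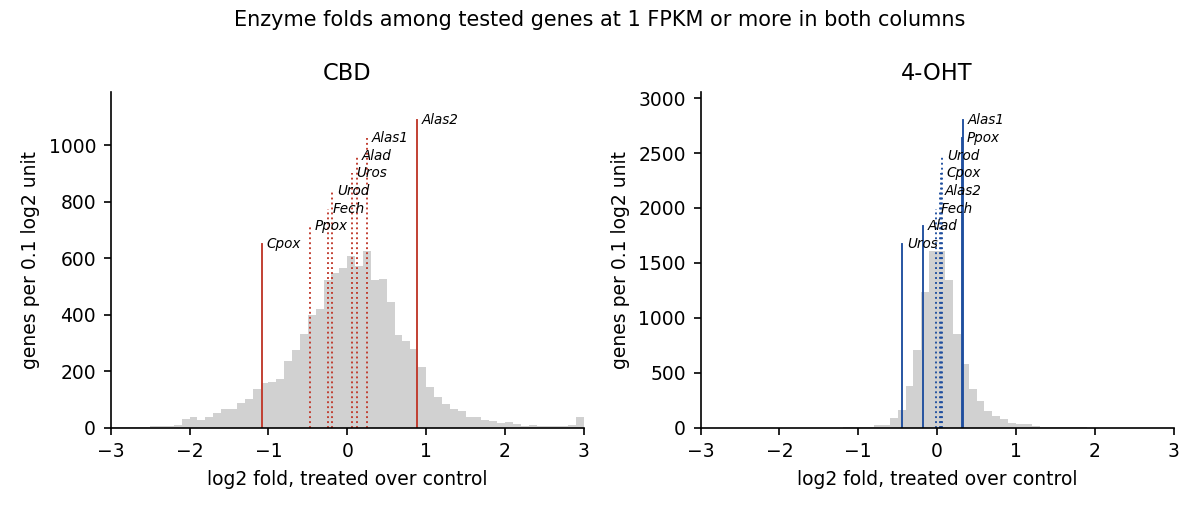
Histograms (grey) of the log2 fold, treated over control, of tested genes at 1 FPKM or more in both columns, with the outermost bars also holding genes beyond 3; coloured lines mark the 8 enzymes, solid where q was under 0.05 and dotted otherwise. Cpox at −1.08 and Alas2 at 0.88 with CBD lie on the flanks of the distribution, and the other 6 within 0.47 of 0.

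Scaling moved the CBD folds. All FPKM of the CBD column summed to 918666 and those of its control to 674548, and with both columns scaled to the same sum every CBD log2 fold falls by 0.45. The folds of Alas1, Alad and Uros then turn to −0.20, −0.32 and −0.39, that of Alas2 is 0.44, and that of Cpox −1.53. With that scaling only Alas2 of the 8 is above 0 with CBD. With the trend of folds with transcript length removed, Alas2 stood at 0.66 and Cpox at −1.16 with CBD.

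Around the enzymes lie the carriers that bring glycine and iron to the mitochondrion and move porphyrins. Of 13 such genes tested, 2 rose and 2 fell with CBD (30.8%, against 26.2% of all tested genes), and 2 rose and 4 fell with 4-OHT (46.2%, against 44.1%). Set against the other table's control, 4 of the 4 calls with CBD and 2 of the 6 with 4-OHT kept their direction. Some kept it barely: Shmt2 with CBD had a log2 fold of −0.68 over its own control and −0.06 over the other. Slc25a37, mitoferrin 1, which imports iron into the mitochondria of red cell precursors, fell to 3.15 FPKM with CBD, against 9.82 FPKM in its control (q = 0.0389 in the authors' deposited table). Abcb6, a membrane transporter linked to porphyrins, rose to 59.02 FPKM with CBD, against 34.4 FPKM in its control, and fell to 42.2 FPKM with 4-OHT, against 57.2 FPKM in its control. Over the other table's control its log2 fold was 0.05 with CBD and 0.29 with 4-OHT. Tspo, an outer membrane protein that binds porphyrins, rose to 453 FPKM with CBD, against 235 FPKM in its control, and to 139 FPKM with 4-OHT, against 110 FPKM in its control. Over the other table's control its log2 fold was 2.04 with CBD and −0.76 with 4-OHT.

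Fech itself carries an iron-sulphur cluster. Of 15 tested genes of cluster assembly none changed with CBD in the authors' Cuffdiff test, against 26.2% of all tested genes, and 2 had an unadjusted p under 0.05. With 4-OHT 2 rose and 6 fell (53.3%, against 44.1%), and 4 of these 8 calls kept their direction over the other table's control. The list's median log2 fold was 0.31 with CBD. Over all tested genes it was 0.29, and over those at 1 FPKM or more in both columns 0.06. With 4-OHT the list's median was −0.11, against 0.05 over all tested genes. With 4-OHT, Lyrm4, a partner of the sulphur donor Nfs1, fell to 12.1 FPKM, against 18.4 FPKM in its control. The scaffold gene Iscu fell to 62.9 FPKM with 4-OHT, against 78.7 FPKM in its control. Over the other table's control the log2 folds of Lyrm4 and Iscu with 4-OHT were 0.21 and 0.64. Isca2, which acts late in assembly, rose to 38.2 FPKM with 4-OHT, against 30.2 FPKM in its control.

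Among 14 tested genes of haem use, degradation and transport, 3 rose and none fell with CBD (21.4%, against 26.2% of all tested genes), and all 3 were also above the other table's control. Hmox1, haem oxygenase 1, stood at 205 FPKM with CBD and 32.8 FPKM in its control, and at 19.8 FPKM with 4-OHT and 15.9 FPKM in its control, and rose in both comparisons. Slc48a1, which carries haem out of endosomes and lysosomes, rose to 358 FPKM with CBD, against 142 FPKM in its control, and fell to 145 FPKM with 4-OHT, against 198 FPKM in its control. Pgrmc1, a haem-binding membrane protein known to bind ferrochelatase, rose to 106 FPKM with CBD, against 54.04 FPKM in its control, and fell with 4-OHT to 70.5 FPKM, against 85.8 FPKM in its control. With 4-OHT 3 of 13 tested genes rose and 6 fell (69.2%, against 44.1%), and 3 of these 9 calls kept their direction over the other table's control. Over that column the log2 folds with 4-OHT were −0.72 for Hmox1, 0.03 for Slc48a1 and 0.38 for Pgrmc1. Slc46a1, a folate transporter that also carries haem, fell to 1.65 FPKM with 4-OHT, against 2.56 FPKM in its control, with a log2 fold of 1.19 over the other table's control.

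Of 12 tested regulators of haem synthesis, 2 rose and 1 fell with CBD, and of 11 with 4-OHT 1 rose and 2 fell. Nrf1, nuclear respiratory factor 1, fell to 14.8 FPKM with CBD, against 23.1 FPKM in its control. Nfe2l2, the antioxidant factor NRF2, rose to 43.2 FPKM with CBD, against 25.8 FPKM in its control. Bach1, a repressor that haem inactivates, fell to 17.9 FPKM with 4-OHT, against 20.3 FPKM in its control. Nr1d1, a haem-binding nuclear receptor, fell with 4-OHT by 0.45 on the log2 scale. Lonp1, a mitochondrial protease that degrades ALAS1, rose to 110 FPKM with 4-OHT, against 89.6 FPKM in its control. The share of these genes called, 25.0% with CBD and 27.3% with 4-OHT, was not above that of all tested genes. Over the other table's control, 3 of the 3 calls with CBD and 0 of the 3 with 4-OHT kept their direction, with log2 folds with 4-OHT of 0.15 for Bach1, 0.49 for Nr1d1 and −0.11 for Lonp1.

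Of 10 tested erythroid transcription factors and E proteins, 4 fell and none rose with CBD (40.0%, against 26.2% of all tested genes called and 7.74% called lower). The 10 genes' median log2 fold was −0.52, against 0.29 over all tested genes and 0.06 over those at 1 FPKM or more in both columns. All 4 were also lower than the other table's control. Zfpm1, the GATA1 cofactor FOG1, fell to 16.5 FPKM with CBD, against 54.9 FPKM in its control, and to 45.5 FPKM with 4-OHT, against 63.8 FPKM in its control. Gfi1b, a repressor of the red cell and platelet lines, fell to 52.99 FPKM with CBD, against 89.5 FPKM in its control, and the E protein gene Tcf12 to 20.4 FPKM, against 40.5 FPKM. Gata1 stood at 139 FPKM with CBD and 183 FPKM in its control (q = 0.233 in the authors' deposited table), and at 220 FPKM with 4-OHT and 232 FPKM in its control (q = 0.261 in the authors' deposited table). With 4-OHT 4 of 12 rose and 3 fell (58.3%, against 44.1%), and 3 of these 7 calls kept their direction over the other table's control. Nfe2 rose to 66.6 FPKM with 4-OHT, against 51.3 FPKM in its control, and its log2 fold over the other table's control was −0.71.

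Of 17 tested red cell genes, 2 rose and 6 fell with CBD (47.1%, against 26.2% of all tested genes), and 7 of these 8 calls kept their direction over the other table's control. Tfrc, the transferrin receptor, fell to 25.3 FPKM with CBD, against 123 FPKM in its control, and the red cell ankyrin gene Ank1 to 3.82 FPKM, against 21.9 FPKM. The 2 that rose were the globin genes Hba-a2 and Hbb-b2, both uncertain because near-identical copies share reads. Hba-a2 stood at 246 FPKM with CBD and 34.9 FPKM in its control, and at 53.4 FPKM with 4-OHT and 37.95 FPKM in its control. Hbb-b2 stood at 1287 FPKM with CBD and 526 FPKM in its control, and at 1222 FPKM with 4-OHT and 1348 FPKM in its control, and the control of the CBD table was the lowest of its 4 columns. With 4-OHT 1 of 18 rose and 9 fell (55.6%, against 44.1%), and 4 of these 10 calls kept their direction over the other table's control. Rhag, the Rh-associated glycoprotein, fell to 14.4 FPKM with 4-OHT, against 23.2 FPKM in its control, and Hbb-bh1, an embryonic globin gene, to 4.89 FPKM, against 11.5 FPKM. Over the other table's control their log2 folds with 4-OHT were 1.27 and 2.74.

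**Figure D4:**
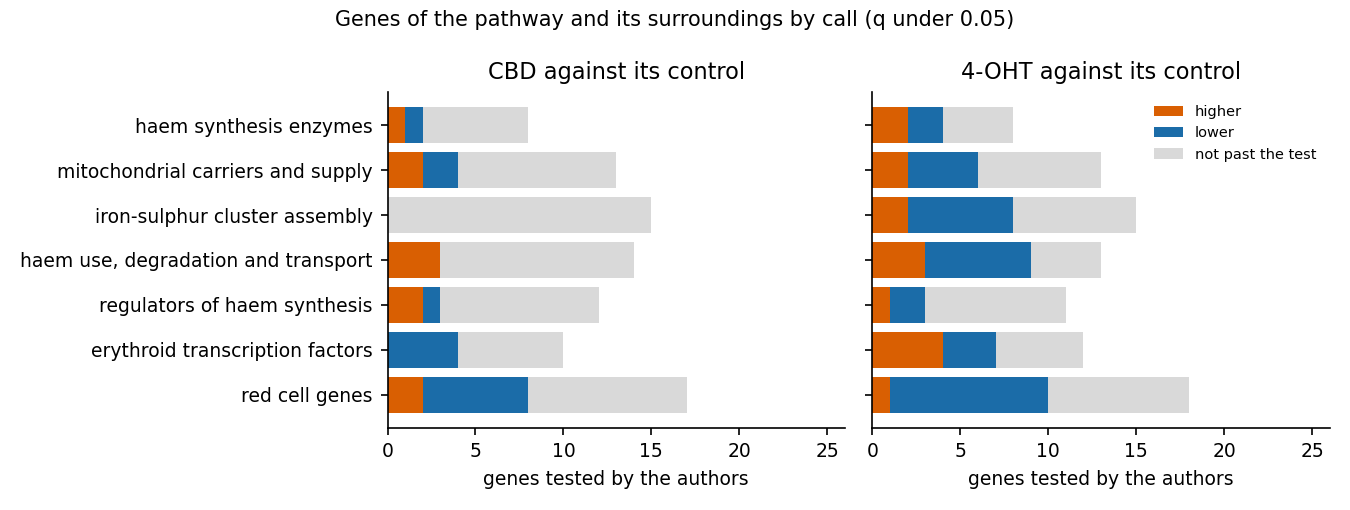
Number of tested genes in the enzyme set and 6 surrounding lists that were higher (orange), lower (blue) or not past the test (grey) at a q under 0.05, for CBD (left) and 4-OHT (right). The iron-sulphur list has no call among 15 genes with CBD, and the erythroid factors have 4 lower and none higher among 10.

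Among 10007 genes tested in both tables with a mean of at least 1 FPKM, likeness was measured as the Euclidean distance between log2 values centred over the 4 columns. Cpox and Alas2 were the members with the widest log2 range over these columns, 1.32 and 1.24. Predicted genes, Rik-named genes, small RNA genes and rows naming several genes were passed over when the nearest genes were taken. The genes nearest to Cpox were then the corepressor gene Rcor1, Mns1 and the chromatin remodeller gene Smarca2, at distances of 0.02, 0.03 and 0.05. Rcor1 stood at 25.0 FPKM with CBD and 52.7 FPKM in its control, and at 61.5 FPKM with 4-OHT and 59.7 FPKM in its control. Nearest to Alas2 were the centrin gene Cetn2, Rgs10, a regulator of G-protein signalling, and the cilium gene Ift88, at distances of 0.06, 0.11 and 0.12. Cetn2 stood at 39.8 FPKM with CBD and 22.7 FPKM in its control, and at 52.7 FPKM with 4-OHT and 52.7 FPKM in its control. With 4 columns, this likeness is a description only.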

How the data were processed

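RNA-seq was made from 6 samples. Per the submitters' processing notes, reads were aligned with Bowtie 0.12.2 to mm9 and groups were compared with Cuffdiff; the sources used here do not give its version, settings or annotation. The authors deposited FPKM values, 1 per group in each of 2 tables, with the p-value and q-value of their test. The deposited log2 column was not used. The depth is unknown, and no interval or test of single libraries was computed.

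From the files, log2 folds were computed with a pseudocount of 0.1 FPKM, using pandas 2.3.3 under Python 3.11.15, and genes with status OK were taken as tested (13751 with CBD, 11232 with 4-OHT). The deposited q was recomputed by the Benjamini-Hochberg method as a check. Transcript lengths were the longest in GENCODE vM21, with a length for 98.0% of genes, used for the length trend in 20 bins alone. Alternatives were other q, fold, pseudocount and FPKM limits, rescalings of the columns, removal of the length trend and the other table's control column. Table starts had 1 added. The members, gene lists and settings were chosen with earlier results of these data known. The text names the 8 members, up to 3 changed genes of each list with the largest fold and a mean of at least 1 FPKM, the 3 genes nearest to the 2 members of widest range, and Id1. Gata1, Klf1, Kit, Elane, Mpo, Ctsg, Ptprc, Mog, S100b, Hbb-b2, Slc4a1, Epb4.2 and Shmt2, and the haem proteins named among the closing observations, were added after their values were seen. Some genes that the rule would name are not reported here.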

Additional observations from a re-analysis of the deposited data

How the results depend on the processing

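The calls rest on the authors' q. With at least 2-fold required, 1 of the 2 enzymes called with CBD was left (Cpox) and 0 of the 4 with 4-OHT. Of the called enzymes, 1 with CBD and 2 with 4-OHT kept their direction when set against the other table's control. Against it the log2 folds of Alas2, Alad and Uros with CBD were −0.33, −0.40 and −0.27, and those of Alas1, Alad and Fech with 4-OHT were −0.26, 0.34 and 0.46. With the length trend removed, Alad, Uros and Fech with CBD stood at −0.14, −0.14 and 0.0499, and Alas2 with 4-OHT at −0.00895; with the median fold centred at 0 Alas2 with 4-OHT stood at −0.00860. With columns scaled to the same sum, a choice made after seeing the data, Alas1, Alad and Uros with CBD stood at −0.20, −0.32 and −0.39, and Alas2 with 4-OHT at −0.0214. Over these 4 settings, which can turn a fold, 49 of 64 folds of the 8 enzymes kept their direction; the authors' q was not refitted under any of them. At a q threshold of 0.01 Alad with 4-OHT was lost. No paired analysis was possible because the tables hold 1 value per group, and leaving out single replicates was not run for the same reason.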

Other observations

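A list of 23 genes whose proteins carry haem or are part of haem-holding complexes was added after the other values were seen. Of 18 tested with CBD, 6 rose and none fell (33.3%, against 26.2% of all tested genes called and 18.4% called higher). The 18 genes' median log2 fold was 0.67, against 0.29 over all tested genes. Over tested genes at 1 FPKM or more in both columns the median was 0.06, but some listed genes lay below 1 FPKM. Catalase (Cat) stood at 102 FPKM with CBD and 53.4 FPKM in its control, cytochrome b5 (Cyb5) at 276 FPKM with CBD and 99.1 FPKM in its control, and Cyba, the small subunit of cytochrome b558, at 338 FPKM with CBD and 164 FPKM in its control. All 3 CBD values were also above the control of the 4-OHT table, at 37.8, 88.1 and 66.5 FPKM. The guanylate cyclase subunit gene Gucy1b3 and the cytoglobin gene Cygb, at 4.14 and 2.02 FPKM with CBD and 0.0220 and 0.129 FPKM in its control, rose in the column in which 17 of 19 neuron and glia markers rose; the part of that RNA was not tested. The mitochondrial cytochrome gene Cyc1 stood at 314 FPKM with CBD and 327 FPKM in its control and did not pass the test. With 4-OHT 5 of 13 rose and 2 fell (53.8%, against 44.1%): Cyp51, the sterol demethylase, rose to 89.3 FPKM, against 49.3 FPKM in its control, and cytochrome c (Cycs) fell to 80.2 FPKM, against 96.2 FPKM.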
